A study of Homo sapiens with 4 samples.

Results

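The genes of the cleavage and polyadenylation specificity factor (CPSF) complex and of the canonical poly(A) polymerases were examined by PAS-seq, which marks where polyadenylated transcripts end. The 10 genes were CPSF1, CPSF2, CPSF3, CPSF4, WDR33, FIP1L1, SYMPK, RBBP6, PAPOLA and PAPOLG. Their PAS clusters (PACs, groups of neighbouring poly(A) sites) were those whose most used site lay inside the gene, on the same strand, in GENCODE 44. This gave 20 of the 17627 PACs of the series, in 9 of the 10 genes. No listed PAC lay inside FIP1L1, which encodes the CPSF subunit that bridges to the poly(A) polymerase, so no value is given for it (chr4:53377569-53464382, plus strand).

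The 4 libraries came from 2 established human esophageal squamous cell carcinoma (ESCC) lines, KYSE30 and TE-1. In each line, l-lactate at 20 mM for 24 h gave 1 library, and control cells given PBS gave the other. The controls' cell line labels read KYSE32 and TE-3, but their titles and the methods name KYSE30 and TE-1, and the titles were followed. Spearman's rho of TPM across PACs was 0.980 within each line and 0.805 to 0.814 between the lines, as a description. It was taken over 12815 to 14444 PACs per pair of libraries, of 17627 in the series. No group had a second library, and each line stands for 1 cell line only.

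The libraries held 7174991 to 10393799 tags, and TPM here is a PAC's tags scaled to a library of 1000000 tags, with no division by transcript length. Of 5 epithelial markers, KRT8, KRT18 and EPCAM were listed in all 4 libraries, and CDH1 and KRT19 were not listed in the TE-1 control. Of 10 squamous markers, 4 were listed in KYSE30 and 3 in TE-1, and TP63, KRT5 and KRT14 were listed in no library. Summed epithelial markers were 4914 to 4936 TPM in KYSE30 and 1175 to 1209 TPM in TE-1. Of 9 markers of immune, stromal, endothelial and muscle cells, 1 was listed in KYSE30 and 3 in TE-1, with sums of 3.48 to 26.9 TPM and PTPRC, PECAM1 and VWF unlisted. The part of these differences in the results was not tested.

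A pre-mRNA is cut near a poly(A) signal, most often AAUAAA, and the new end receives a poly(A) tail. CPSF4 and WDR33 bind the signal on a scaffold formed by CPSF1, and FIP1L1 joins this module to the polymerase. CPSF3 is the endonuclease that makes the cut, CPSF2 is its catalytically inactive partner, and SYMPK holds them together. RBBP6 is needed to activate the cut, and PAPOLA and PAPOLG add the tail. Transcripts of such genes can also end at a signal inside an intron, before the last exon.

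Of the 20 PACs, 13 had AATAAA and 2 more had ATTAAA but not AATAAA in the 50 nt ending at the dominant site, read on the transcribed strand. Over all 17621 PACs on the chromosomes of the genome sequence, 66.4% had AATAAA and 16.7% had ATTAAA alone. The letters TGTA, the DNA form of the UGUA bound by NUDT21, were in the 100 nt before 14 of the 20 sites and before 57.0% of all sites. No member's site was followed by an A-rich stretch (6 consecutive A or at least 7 A in 10 nt), against 1.62% of all sites. The 30 nt ending at the dominant site are given for PACs of the 3 genes with PACs before the last exon, since their shares carry the main comparisons. Sequences are from GRCh38, 5′ to 3′ along the transcript, with the hexamer nearest the site in capitals where one of them lies in the window. A further AATAAA upstream in PAPOLA PAC 1 is in lower case. The windows of PAPOLA (plus strand) were chr14:96531702-96531731, chr14:96532666-96532695 and chr14:96567079-96567108, in intron 7, intron 9 and the last exon of the canonical transcript. Both intronic sites lay within 1 nt of the end of an annotated retained-intron transcript.
PAPOLA PAC 1: taaataaaatgaactttgcctAATAAActa
PAPOLA PAC 2: tattaaAATAAAattgattgtagacactga
PAPOLA PAC 3: cattgaaaacacAATAAAaaaaaaacagca
The windows of RBBP6 (plus strand) were chr16:24540558-24540587, chr16:24549372-24549401 and chr16:24559758-24559787. They lay in the 5′ UTR in exon 1 and in introns 3 and 8.
RBBP6 PAC 1: agtttataaatatacgtatattgagagtgt
RBBP6 PAC 2: tttcttgcAATAAAaaatgtttggagtgta
RBBP6 PAC 3: ttttaataataaAATAAAtaatgttgatga
The windows of WDR33 (minus strand) were chr2:127764474-127764503, chr2:127735420-127735449 and chr2:127705929-127705958, in intron 6, intron 7 and the 3′ UTR. Both introns of the canonical transcript are there a 3′ UTR of a shorter protein-coding WDR33 transcript.
WDR33 PAC 1: tttcattccaAATAAAgaattcagtcttta
WDR33 PAC 2: aggaaaAATAAAatgggaacatggacacca
WDR33 PAC 3: tttgtatgaatacagaatgtgatttacgca
All intronic PACs of the 3 genes had AATAAA, while neither hexamer lay in the 50 nt before RBBP6 PAC 1 in the 5′ UTR or WDR33 PAC 3 in the last exon.

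Except for SYMPK, gene levels differed more between the lines than with l-lactate. For SYMPK the log2 differences were 0.07 between KYSE30 and TE-1 and −0.08 with l-lactate. Summed over its PACs, PAPOLA was at 114 TPM with l-lactate and 108 TPM in the control of KYSE30, and at 191 and 170 TPM in TE-1. Both TE-1 libraries lay above both KYSE30 libraries, and PAPOLA was the most abundant of the 9 genes. PAPOLG was at 21.6 and 21.3 TPM in KYSE30 and at 15.4 and 11.4 TPM in TE-1, in the same order, the opposite direction of PAPOLA. In the limma fit of log2(TPM + 1) with terms for line and treatment, KYSE30 was lower than TE-1 for PAPOLA by 0.69 (log2 difference −0.69, SE 0.07, adjusted p = 0.00059). For PAPOLG the log2 difference was 0.66 (SE 0.16, limma adjusted p = 0.013), with its distal PAC, unlisted in TE-1, counted as 0. It was 0.38 (limma adjusted p = 0.019) with unlisted PACs set to a TPM of 3, and 0.35 (limma adjusted p = 0.056) from PACs listed in all 4 libraries, where the call was lost.

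In the module that recognises the signal, the scaffold CPSF1 was higher in KYSE30. It was at 65.2 TPM with l-lactate and 67.7 TPM in the control of KYSE30, and at 40.03 and 40.3 TPM in TE-1, with a log2 difference of 0.71 (SE 0.09, limma adjusted p = 0.0011). CPSF4, a zinc finger subunit, was at 85.6, 82.4, 81.2 and 83.2 TPM in the same order of libraries, and its lines overlapped. WDR33 was at 59.8, 61.4, 76.0 and 77.6 TPM, lower in both KYSE30 libraries, with a log2 difference of −0.34 (SE 0.08, limma adjusted p = 0.013). Genes of 1 module thus differed in level between the lines in both directions. CPSF4 did not pass the test (log2 difference 0.03, SE 0.08, limma adjusted p = 0.75).

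In the cleavage module, the endonuclease CPSF3 was at 93.2 TPM with l-lactate and 87.4 TPM in the control of KYSE30, and at 69.4 and 72.2 TPM in TE-1. Its partner CPSF2 went the other way, with 55.5 and 45.7 TPM in KYSE30 and 79.5 and 82.1 TPM in TE-1. The log2 differences were 0.35 for CPSF3 (SE 0.08, limma adjusted p = 0.014) and −0.67 for CPSF2 (SE 0.11, limma adjusted p = 0.0031). SYMPK was the least abundant of the 9 genes, at 6.69, 8.22, 7.32 and 6.74 TPM from 48 to 70 tags, and RBBP6 was at 60.3, 59.5, 74.2 and 62.9 TPM. SYMPK overlapped between the lines, RBBP6 was higher in both TE-1 libraries, and neither passed the test (limma adjusted p = 0.76 and 0.13).

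**Figure D1:**
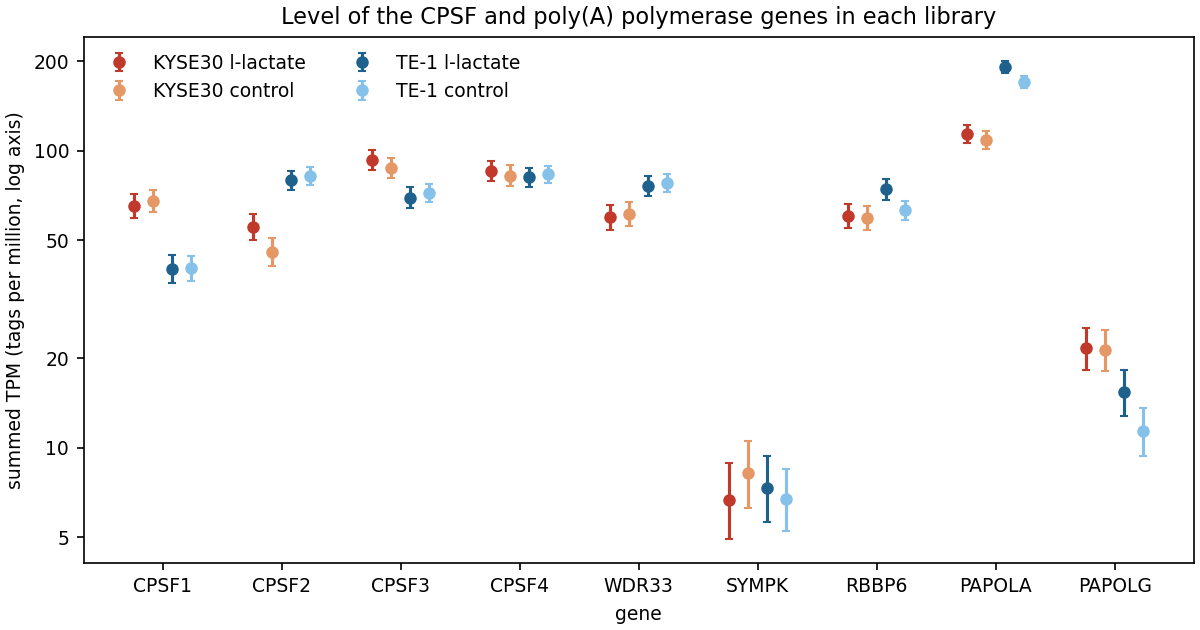
Summed TPM of the 9 genes with a listed PAC (log axis) in each of the 4 libraries, with exact 95% Poisson intervals for counting error as bars. PAPOLA, CPSF2 and WDR33 are higher in both TE-1 libraries, CPSF1, CPSF3 and PAPOLG in both KYSE30 libraries, and SYMPK is lowest in all 4.

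Between the lines, 6 of the 9 genes passed an adjusted p of 0.05, 3 higher in KYSE30 and 3 higher in TE-1, against 70.9% of the 11765 genes tested. This share is near the background. The median log2 difference between KYSE30 and TE-1 was 0.03 over the members and 0.03 over all genes. In bulk libraries, fewer cells with a transcript and less RNA per cell cannot be told apart. The fit had 1 residual degree of freedom and nothing states that the libraries of a line are separate cultures, so its p-values measure the spread between these libraries. Without each library in turn, with a line term alone, 3 or 4 of the 9 genes passed in place of 6. CPSF1 passed in each of these fits, and PAPOLA lost its call without either KYSE30 library (limma adjusted p = 0.060 and 0.070). PAPOLG and CPSF3 each lost the call in 3 of these fits, CPSF2 without either TE-1 library, and WDR33 without the TE-1 control, where RBBP6 gained it (limma adjusted p = 0.0498).

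With l-lactate, no member passed in the limma fit, against 0% of all genes, with 855 of 11765 genes and none of the members at an unadjusted p of 0.05 or less. The lowest adjusted p of a member was 0.68, for PAPOLA (log2 difference 0.12, SE 0.07). Weighting recovered tags with limma voom called 25 genes, none of them a member. The ratio of l-lactate to control for PAPOLA was 1.05 in KYSE30 (95% counting interval 0.955 to 1.16) and 1.13 in TE-1 (1.05 to 1.21). For PAPOLG it was 1.02 (0.808 to 1.28) and 1.35 (1.05 to 1.75), and for RBBP6 1.01 (0.886 to 1.16) and 1.18 (1.05 to 1.32). CPSF2 had a ratio of 1.22 in KYSE30 (1.05 to 1.41) and 0.968 in TE-1 (0.874 to 1.07). For the other 5 genes the intervals included 1 in both lines. No member reached 1.5-fold in either line, against 6.61% of genes in KYSE30 and 6.58% in TE-1.

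PAC shares, the percentage of a gene's tags at each PAC, showed how the transcripts ended. For PAPOLA, the intron 9 PAC (PAC 2 of the printed sequences) held 16.2% in l-lactate KYSE30 cells (95% Wilson interval 13.9% to 18.9%) and 22.5% in the control (19.8% to 25.5%). In TE-1 it held 13.95% (12.3% to 15.7%) and 24.1% (22.2% to 26.1%). The share was lower with l-lactate in both lines, and the intervals were apart in each. The PAC in the last exon held 79.1% and 72.4% in KYSE30, and 84.3% and 73.1% in TE-1, so that it was higher with l-lactate in both lines. The intron 7 PAC held 4.64% and 5.10% in KYSE30 and 1.73% and 2.78% in TE-1.

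In TPM, the intron 9 PAC of PAPOLA was at 18.5 with l-lactate and 24.4 in the control of KYSE30, and at 26.7 and 40.9 in TE-1. The last-exon PAC was at 90.3 and 78.4 TPM in KYSE30 and at 161 and 124 TPM in TE-1. Fewer tags at the intronic site and more at the terminal site were thus both seen in each line. The ratios of l-lactate to control were 0.760 in KYSE30 (counting interval 0.603 to 0.957) and 0.653 in TE-1 (0.553 to 0.769) for intron 9, and 1.15 (1.03 to 1.29) and 1.30 (1.20 to 1.40) for the last exon.

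Over both lines, the log2 odds of the intron 9 share of PAPOLA differed by −0.77 with l-lactate (SE 0.20), and those of the last exon by 0.76 (SE 0.21). Neither passed over all 6062 PACs tested, with limma adjusted p = 0.60 for both and unadjusted p = 0.037 and 0.045 in the same limma fit. They were the 2 of 12 member PACs at an unadjusted p of 0.05 or less, of 384 among all PACs, and no PAC passed the adjusted test (0%). As shares of the same gene's tags, the fall at intron 9 and the rise at the last exon are not separate results. When only PACs listed in all 4 libraries were used, both PACs of PAPOLA passed (limma adjusted p = 0.036 for each), with 306 of 4882 PACs called. The estimates were the same, and the SE of the intron 9 difference was 0.24 in place of 0.20. This fit took 58.2 prior degrees of freedom from all PACs, against 1.62 before, beside 1 from the libraries, so its p-values rest largely on the pooled variance. The same 2 PACs were the only members whose counting intervals were apart in the same direction in both lines, which held for 4.52% of all PACs.

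**Figure D2:**
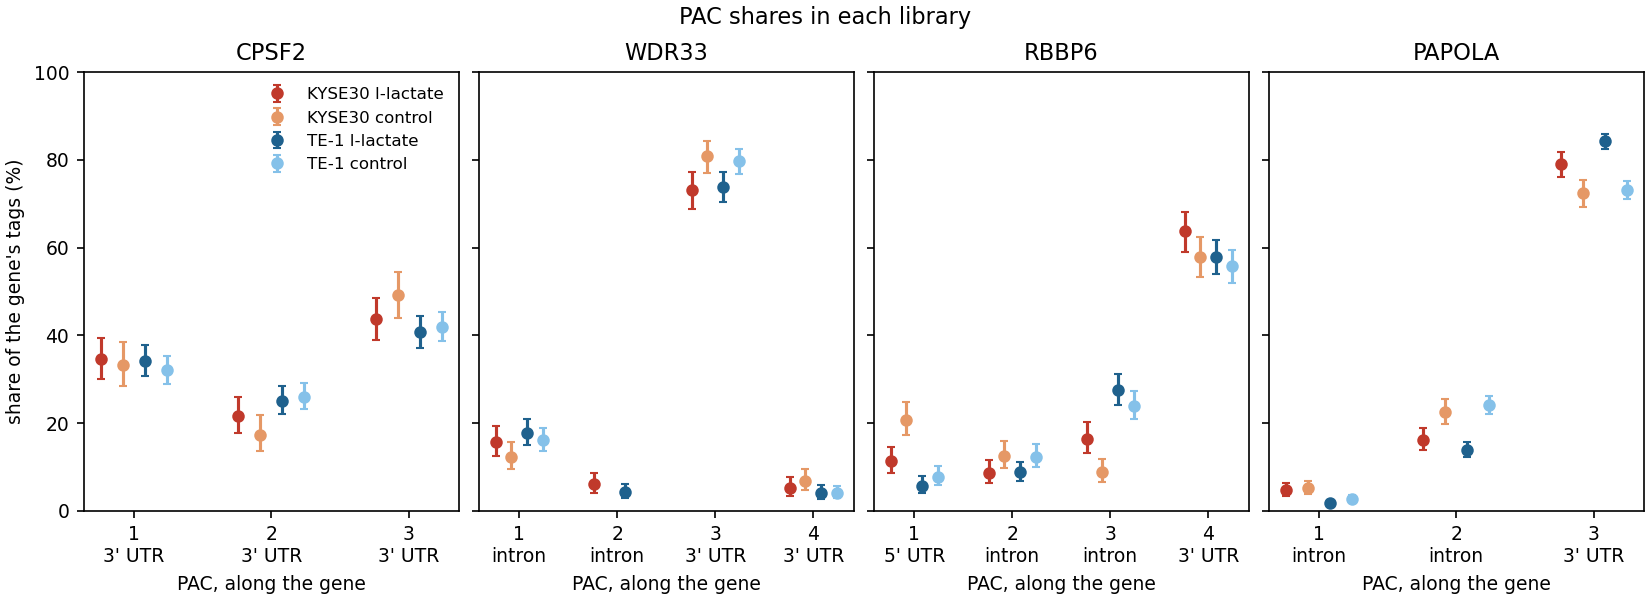
Share of the gene's tags (%) at each PAC of CPSF2, WDR33, RBBP6 and PAPOLA, in order along the gene, in each library, with Wilson 95% intervals as bars and no point where a PAC was not listed. PAC 2 of PAPOLA, in intron 9, is lower with l-lactate in both lines, and PAC 3, in the last exon, is higher.

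RBBP6 transcripts ended at 3 places before the last exon. The PAC in the 5′ UTR held 11.3% in l-lactate KYSE30 cells (8.67% to 14.6%) and 20.8% in the control (17.3% to 24.8%). In TE-1 it held 5.73% (4.17% to 7.83%) and 7.80% (5.98% to 10.1%). Both KYSE30 libraries lay above both TE-1 libraries, and the intervals of l-lactate and control were apart in KYSE30 only, where the difference was −9.50 points (counting interval −14.3 to −4.65) against −2.07 in TE-1 (−4.86 to 0.713). Whether this difference between the lines exceeds the variation between cultures was not tested.

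The intron 8 PAC of RBBP6 went the other way. It held 16.4% with l-lactate (13.2% to 20.2%) and 8.82% in the control (6.52% to 11.8%) of KYSE30, and 27.5% (24.2% to 31.2%) and 24.01% (20.9% to 27.4%) in TE-1. Both TE-1 libraries lay above both KYSE30 libraries. The share was higher with l-lactate by 7.57 points in KYSE30 (counting interval 3.19 to 12.0). In TE-1 it was higher by 3.54 points (−1.24 to 8.32), within counting error. The intron 3 PAC, at the end of an annotated short protein-coding transcript, held 8.55% and 12.4% in KYSE30 and 8.76% and 12.4% in TE-1. The 3′ UTR PAC held 63.7% and 57.9% in KYSE30 and 58.0% and 55.8% in TE-1.

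Between the lines, the log2 odds of the RBBP6 shares differed by 1.35 for the 5′ UTR PAC (SE 0.25, limma adjusted p = 0.068) and by −1.32 for intron 8 (SE 0.28, limma adjusted p = 0.081). None of the 12 member PACs passed between the lines, against 20.1% of 6062 PACs, with 3 of the 12 and 2491 of all PACs at an unadjusted p of 0.05 or less. Both RBBP6 PACs passed when the minimum TPM was 10 (limma adjusted p = 0.024 and 0.029). With l-lactate, the log2 odds of the RBBP6 PACs differed by −0.75, −0.58, 0.64 and 0.24 in order along the gene, with limma adjusted p of 0.60 each.

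WDR33 transcripts ended mainly in the 3′ UTR, at a PAC with a share of 73.2% in l-lactate and 80.9% in control KYSE30 cells, and 73.9% and 79.8% in TE-1. It was lower with l-lactate in both lines, with differences of −7.73 points in KYSE30 (counting interval −13.2 to −2.19) and −5.89 points in TE-1 (−10.3 to −1.53). It did not pass the limma fit (log2 odds difference −0.56, adjusted p = 0.60), and the difference was −0.27 with unlisted PACs set to a TPM of 3. The intron 6 PAC held 15.6% and 12.3% in KYSE30 and 17.7% and 16.1% in TE-1. The intron 7 PAC was listed only in the l-lactate libraries, with 26 tags (3.62 TPM) in KYSE30 and 28 tags (3.31 TPM) in TE-1. The authors removed single-site PACs below a TPM of 3, with 0 to 3 of them still listed per library, so this PAC could hold up to 4.60% of tags in the KYSE30 control and 3.70% in the TE-1 control, against 6.06% and 4.35% with l-lactate. A change from absence to presence was therefore not shown.

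A further 3′ UTR PAC of WDR33 held 4.04% to 6.80% of tags. For CPSF2, all 3 PACs lay in the 3′ UTR, at chr14 positions 92162064, 92162706 and 92164200. The first held 34.7%, 33.3%, 34.2% and 32.0% of tags in KYSE30 with l-lactate, KYSE30 control, TE-1 with l-lactate and TE-1 control. The second held 21.6%, 17.4%, 25.1% and 26.0%, and the last 43.7%, 49.3%, 40.7% and 42.0%. The counting intervals of all CPSF2 differences with l-lactate included 0. For PAPOLG, the distal 3′ UTR PAC was listed only in KYSE30, at 4.32 TPM with l-lactate and 4.44 TPM in the control, or 20% and 20.9% of tags. An unlisted PAC could hold up to 16.1% and 20.8% in the TE-1 libraries, so no difference between the lines was shown. CPSF1, CPSF3, CPSF4 and SYMPK each had 1 PAC.

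Within lines, no member PAC changed by at least 10 points with l-lactate in KYSE30, against 10.4% of all PACs tested. In TE-1, 2 of 12 did, against 11.7%. They were the intron 9 PAC of PAPOLA (−10.1 points, counting interval −12.7 to −7.52) and its last-exon PAC (11.2 points, 8.45 to 13.9). Both are shares of the same gene's tags, so they are not separate changes.

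**Figure D3:**
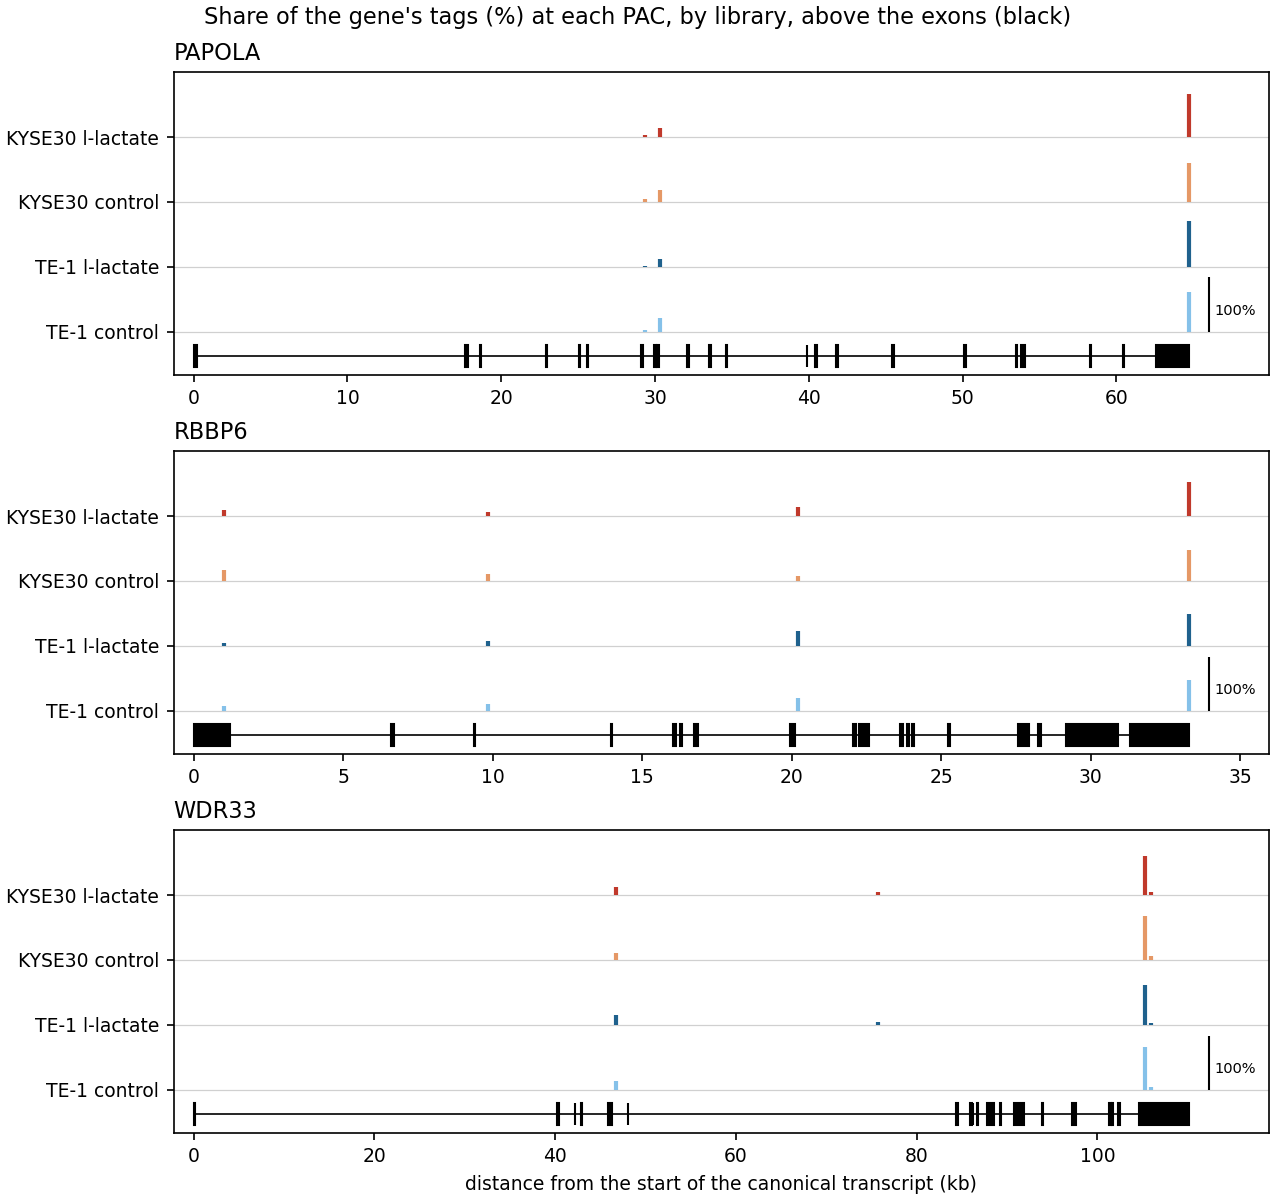
Share of the gene's tags at each PAC (bar height, with a 100% scale bar) along PAPOLA, RBBP6 and WDR33, as distance in kb from the start of the canonical transcript, with 1 track per library above the exons. Each gene ends mainly in its last exon and also at 2 or 3 sites before it. The intron 7 bar of WDR33 is drawn only in the l-lactate tracks. In the controls this PAC was not listed, and it could hold up to 4.60% of tags in KYSE30 and 3.70% in TE-1.

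The tags that ended before the last exon were summed for each gene. PAPOLA and RBBP6 each had only their final PAC in the last exon. Their sums are therefore the remainder of that PAC's share given above, and not a further result. For PAPOLA they made up 20.9% in l-lactate and 27.6% in control KYSE30 cells, and 15.7% and 26.9% in TE-1. For RBBP6 they were 36.3% and 42.1% in KYSE30 and 42.0% and 44.2% in TE-1. For WDR33 they were 21.7% and 12.3% in KYSE30 and 22.0% and 16.1% in TE-1. PAPOLA and RBBP6 were lower with l-lactate in both lines, and WDR33 was higher.

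The difference for PAPOLA was −6.73 points in KYSE30 (counting interval −10.9 to −2.56) and −11.2 in TE-1 (−13.9 to −8.45). For RBBP6 it was −5.82 (−12.2 to 0.645) and −2.15 (−7.55 to 3.27), within counting error in each line. For WDR33 it was 9.40 (4.46 to 14.3) and 5.94 (1.88 to 10.1). With its unlisted intron 7 PAC set to a TPM of 3, the WDR33 control shares were 16.3% in KYSE30 and 19.2% in TE-1, and their Wilson intervals overlapped those with l-lactate in both lines, while those of the shares as listed did not. Of 637 genes with PACs both before and in the last exon, the median difference was 0.267 points in KYSE30 and 0 in TE-1. A change of at least 10 points was reached by none of the 3 genes in KYSE30, against 11.8% of the 637, and by PAPOLA alone in TE-1, against 11.5%.

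**Figure D4:**
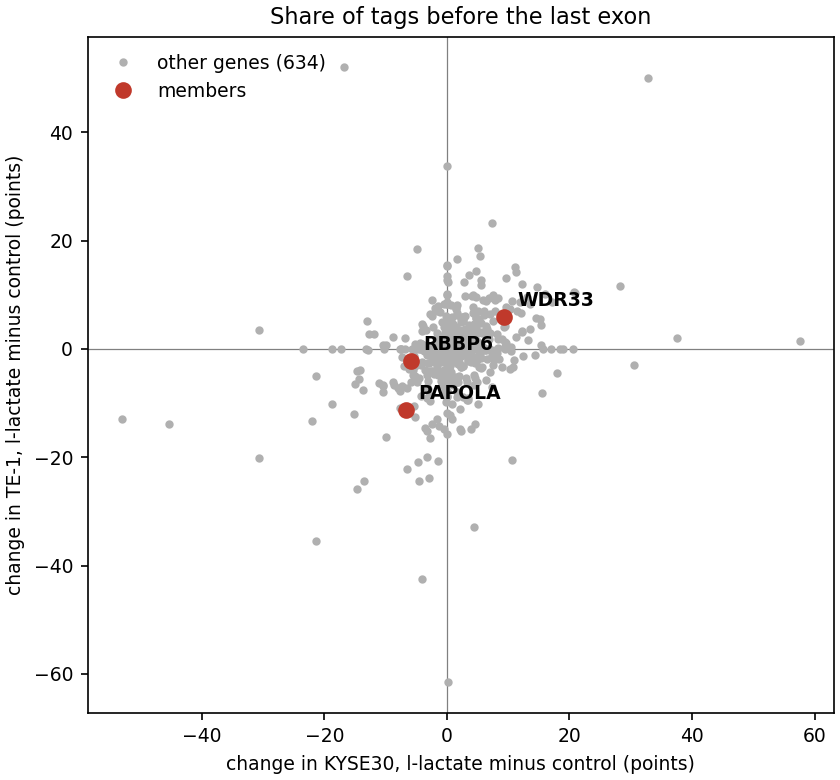
Change in the share of tags that ended before the last exon, l-lactate minus control in percentage points, in KYSE30 (x axis) and TE-1 (y axis), for 637 genes with the 3 members in red. PAPOLA and RBBP6 lie below 0 in both lines and WDR33 above 0 in both. The intron 7 PAC of WDR33, unlisted in the controls, is counted there as 0. With it set to a TPM of 3, the Wilson intervals of the WDR33 shares overlapped between l-lactate and control in both lines. A smaller (more negative) difference than that of PAPOLA was seen in 7.38% of the genes in KYSE30 and 5.49% in TE-1.

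Dominant sites were compared over the 4 pairings of libraries (l-lactate against control in KYSE30 and in TE-1, and KYSE30 against TE-1 with l-lactate and in the control). This gave 62 member comparisons with TPM above 5 in both libraries. Only 8 of the 62, in CPSF2 PAC 2 and WDR33 PAC 3, were in PACs wide enough for a move of more than 24 nt, and none moved that far. The background for such moves was 1.43%, 1.24%, 1.96% and 2.06% of PACs in that order. Shifts of any length were seen in 8 comparisons, against 5.03%, 4.51%, 6.28% and 6.18% of PACs in the same order of pairings. All 8 were in the PACs of CPSF3, RBBP6 intron 8 and the WDR33 3′ UTR described next. The pairings share libraries, so these are not 8 separate observations. The dominant site of CPSF3 was at chr2 position 9473101 with l-lactate and 9473099 in the control of both lines, in a PAC where it held 17.3% to 19.2% of tags. The intron 8 site of RBBP6 was at 24559787 with l-lactate and 24559784 in the controls. In KYSE30 the site dominant in each library held 29 of 71 tags with l-lactate and 16 of 39 in the control. In TE-1 these counts were 65 of 173 and 51 of 157. The l-lactate and control counts belong to different positions, so they do not compare use of the same site. For WDR33 the 3′ UTR site alternated between positions 127705921 and 127705929, each holding 46.3% to 48.7% of the PAC's tags where it was dominant.

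Among other factors of cleavage and polyadenylation, 11 of 17 genes tested passed between the lines, against 70.9% of all genes tested. Of the 11, 4 were higher in KYSE30 and 7 higher in TE-1. Those with the largest log2 differences were CSTF2T (−0.999), SSU72 (0.94), PCF11 (−0.82), PPP1CB (0.69) and RPRD1A (−0.64). Among other polymerases and paralogues, 7 of 11 passed, against the same 70.9%, and TENT4A (−1.60), MTPAP (−1.44), TENT5A (−1.08) and TUT7 (0.87) were among the largest. TENT2 was listed only in KYSE30, at 6.55 and 5.39 TPM. No gene of either list passed with l-lactate in the limma fit, against 0% of all genes. Unadjusted limma p was 0.05 or less for 3 of the 17 factors, none of the 11 polymerases and 855 of all 11765 genes. The median log2 difference with l-lactate was 0.02 over the members, 0.02 over the 17 factors, 0.09 over the 11 polymerases and 0.02 over all genes.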

How the data were processed

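PAS-seq libraries of KYSE30 and TE-1 cells (l-lactate and control, 1 each) were used. According to the study's methods, reads were trimmed with FASTX-Toolkit, aligned to GRCh38 (GRCh38.p14 in the submitters' processing notes) with HISAT2, and clustered with CAGEr. Sites with TPM below 1 and single-site PACs below 3 were removed by the authors. The values deposited by the authors are TPM without length correction, that is RPM (tags scaled to a library of 1000000 tags). Whole tags were recovered from the TPM steps, and 100% of values were whole within 0.0005 TPM. Totals were 7174991, 7425554, 8468958 and 10393799 tags. Intervals cover counting error only, at 95% (Poisson for levels, exact binomial for ratios, Wilson for shares and Newcombe for their differences).

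The 4 tables were joined on the PAC number and placed on GENCODE 44. A gene's level was its summed TPM, with unlisted PACs as 0. limma 3.58.1 in R 4.3.3 was fitted with line and treatment to log2(TPM + 1) of 11765 genes with a mean of at least 1, and to the log2 odds of shares (0.5 tags added) of 6062 PACs with TPM above 5 in a library, in genes with at least 2 such PACs. P-values were adjusted by Benjamini-Hochberg over all features. Within a line, changes of 1.5-fold and 10 points were counted without a test. The fit and the intervals were run on simulated tags with planted changes, which checks the code and not the variation between cultures. Alternatives changed the pseudocount, the filters, the scaling, the spans, the treatment of unlisted PACs, the model and the libraries used. Counting and sequence steps used Python 3.11.15, SciPy 1.17.1 and pysam 0.24.0.

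Genes named are the 10 members and their PACs, with at most 5 genes per context list and comparison that passed the test. The members and lists were chosen with earlier results of these data known. No sequence of CPSF1, on chromosome 8, is shown. The sequence of the last RBBP6 PAC is not reported here.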

Additional observations from a re-analysis of the deposited data

Results flagged for a closer look

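The dominant site of the 3′ UTR PAC of WDR33 changed position in opposite directions with l-lactate in the lines, which is what marked it. Along the transcript it lay 8 nt further upstream with l-lactate in KYSE30 (shift of −8 nt) and 8 nt further downstream in TE-1 (shift of 8 nt). The difference between the lines was not tested. In KYSE30 the dominant site was at 127705929 with l-lactate (153 of 314 tags) and at 127705921 in the control (171 of 369). In TE-1 it was at 127705921 with l-lactate (226 of 476 tags) and at 127705929 in the control (300 of 644). In each library the dominant site held 46.3% to 48.7% of the PAC's tags. The tags at the other position are not given, so the values show which site led and not how far use of either changed.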

How the results depend on the processing

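Between the lines, 6 of 9 members passed, and 4 to 6 did under the alternatives with all 4 libraries. PAPOLG lost its call with PACs listed in all 4 libraries (limma adjusted p = 0.056), and CPSF3 (0.068) and WDR33 (0.061) lost theirs without a variance trend. Leaving out each library in turn, with a line term alone, gave 3 to 4, with the lone library of a line assumed to vary like the other line. For PAC shares between the lines, 0 of 12 passed, against 2 with a minimum TPM of 1 (both of PAPOLG, whose distal PAC is unlisted in TE-1 and was taken as 0, so that no difference is shown) or 10 (both of RBBP6), 1 in percentage points, and 3 with PACs listed in all 4 libraries or unlisted PACs at a TPM of 3. With l-lactate, 0 of 12 shares passed, against 2 with PACs listed in all 4 libraries, where limma's prior degrees of freedom were 58.2 in place of 1.62 for shares and unlimited in place of 4.12 for levels (also with unlisted PACs at a TPM of 3), so that calls there rest largely on the pooled variance. Within lines, 2 share changes were counted at 10 points (both of PAPOLA, from the same tags), 10 at 5 points and 0 at 20 points. Dominant sites moved in 0 comparisons past 24 nt and in 8 at any length, with 54 of 62 comparisons in PACs too narrow for the longer move. The causes were not tested, apart from the thresholds themselves.

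Over all genes, the l-lactate fit called 0 genes, 1 with a pseudocount of 5, 10 with a mean TPM of at least 10, 25 with voom, 174 with PACs listed in all 4 libraries and 197 with unlisted PACs at a TPM of 3. Between the lines it called 8337 genes, and 4670 to 5139 without 1 library. Over all PACs, l-lactate called 0, and 306 with PACs listed in all 4 libraries. Between the lines 1216 PACs were called, 2355 with PACs listed in all 4 libraries and 2714 with unlisted PACs at a TPM of 3. The voom fit, the fit without a variance trend, the TPM of 3 and the left-out libraries were chosen after seeing the data. The planned edgeR test on recovered tags was not run, because the tables hold scaled values and their step could not be checked as reads. Through its line term, the fit paired treated with control cells of the same line.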

Other observations

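A PAC with its site at chr2 position 127701022, 5 nt past the annotated end of WDR33, was outside the sums above. It was not listed with l-lactate in KYSE30, and was at 3.10 TPM in the KYSE30 control (23 tags), 6.14 TPM with l-lactate in TE-1 (52 tags) and 5.39 TPM in the TE-1 control (56 tags). The counting intervals of the TE-1 libraries, 4.59 to 8.05 TPM and 4.07 to 6.997 TPM, overlapped. The WDR33 levels and shares above leave this PAC out, and the shares were not computed with it. With gene spans extended by 1000 nt, the log2 level difference of WDR33 between KYSE30 and TE-1 was −0.41 (SE 0.08, limma adjusted p = 0.0077). It was −0.34 without the extension.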
